A study of Sus scrofa with 6 samples.

Results

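The integrated stress response and the aminoacyl-tRNA synthetases were followed in differentiating pig muscle cells, using 59 named genes: 13 stress regulators, 4 luminal proteins of the endoplasmic reticulum (ER), 8 enzymes of serine synthesis and one-carbon metabolism, 8 other enzymes of amino acid synthesis, 19 cytosolic synthetases, 2 scaffold proteins of the synthetase complex and 5 mitochondrial synthetases. Members were taken by symbol from the pig Ensembl identifiers of the deposited FPKM table (fragments per kilobase of gene model, scaled to the mapped fragments of the library), and an older synthetase name without its final 1 counted as the same gene. A value was found for 39 of the 59, in a table of 28266 genes of which 11804 carried a symbol. The other 20 are not analysed here: ATF4 itself, ERN1, DDIT3, DDIT4, TRIB3, CHAC1, CEBPB, NUPR1, HERPUD1, SDF2L1, MANF, SHMT1, SHMT2, PYCR1, CBS, GOT2, FARSB, QARS1, VARS1 and FARS2. The regulators are therefore seen through 5 of 13 genes, and the cytosolic synthetases through 16 of 19.

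The cells were skeletal muscle satellite cells of Yorkshire pigs, the resident muscle stem cells, isolated by the authors from newborn male animals. Both groups received negative control (NC) siRNA before the medium was changed to one low in serum, which starts differentiation. NC24h comprised the 3 libraries titled N1_4 to N1_6, taken 24 h after that change, and NC36h the 3 titled N2_4 to N2_6. The time of NC36h is given as 36 h in the series title and as 48 h in the sample labels, and the negative control is read from the letter N in the titles as the paper uses it. The knockdown libraries of the study are not analysed here, so the single contrast is NC36h against NC24h. Nothing in the labels says whether the 3 libraries of a group came from separate animals or cultures, so p-values measure the spread between these samples, which may be technical.

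In the integrated stress response, a kinase that senses amino acid shortage, misfolded protein in the ER, haem shortage or double-stranded RNA phosphorylates the translation factor eIF2. General translation then slows while ATF4, a transcription factor, is made in larger amounts and switches on genes for amino acid synthesis and uptake, for one-carbon metabolism and for many cytosolic aminoacyl-tRNA synthetases. The synthetases join each amino acid to its tRNA, and several of the cytosolic ones sit in one complex held together by AIMP1, AIMP2 and EEF1E1. A differentiating myoblast leaves the cell cycle, fuses and turns to making contractile protein.

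The libraries held between 16250222 and 21723087 fragments in the table, counted back from the FPKM values, so that 1 fragment per kilobase was worth between 0.0457 and 0.0610 FPKM. All 4 myogenic markers were high, with DES, the muscle intermediate filament, at 1452 FPKM or more in every library. The 5 myotube markers rose together, and their summed level was 1037 to 3495 FPKM at NC24h and 9520 to 11576 FPKM at NC36h. Of the fibroblast markers, COL1A2, DCN and LUM fell and COL3A1 rose, and the summed level of all 5 was 928 to 999 FPKM at NC24h and 823 to 1029 FPKM at NC36h. KDR of endothelium and PTPRC of leukocytes were listed at 0 in all 6 libraries, and the adipocyte marker PLIN1 was at 0.0773 FPKM or less. PECAM1, the other endothelial marker, was at 1.10 to 1.59 FPKM at NC24h and 1.01 to 1.67 FPKM at NC36h. It did not pass the test (log2 change 0.04). CD14, 1 of the 2 immune markers tested, fell from a highest level of 3.29 FPKM. The part of these markers in the changes of the members was not tested. Replicate 6 of NC24h stood apart from replicates 4 and 5, with a summed myotube level of 1037 FPKM against 3495 and 2755 FPKM, and a summed cell cycle level of 96.0 FPKM against 37.9 and 50.0 FPKM. In bulk RNA a lower level can come from fewer cells of a type or from less RNA per cell, and these cannot be told apart.

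The members split rather than moving one way. Among the 38 with a mean of at least 1 FPKM, 20 passed the limma test on log2(FPKM + 1) at a Benjamini-Hochberg adjusted p under 0.05, which is 52.6% against 50.9% of all 14060 genes tested. SESN2, AARS1, CARS1 and AIMP2 rose (4 members, 10.5% against 16.5% of all genes), and 16 members fell (42.1% against 34.4%). The share of members called was near that of all genes, and the median log2 change was -0.18 for the members against -0.16 for all genes tested. For 26 of the 38, every library of one time lay on the same side of every library of the other, against 63.6% of all genes. Without NC24h replicate 6, 5 members rose and 16 fell, against 17.4% and 34.8% of all genes. A limma voom fit on the recovered fragments called 4 members higher and 17 lower, where 51.6% of all genes were called in either direction. Together the 39 made up between 0.242% and 0.280% of the summed FPKM of a library.

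**Figure D1:**
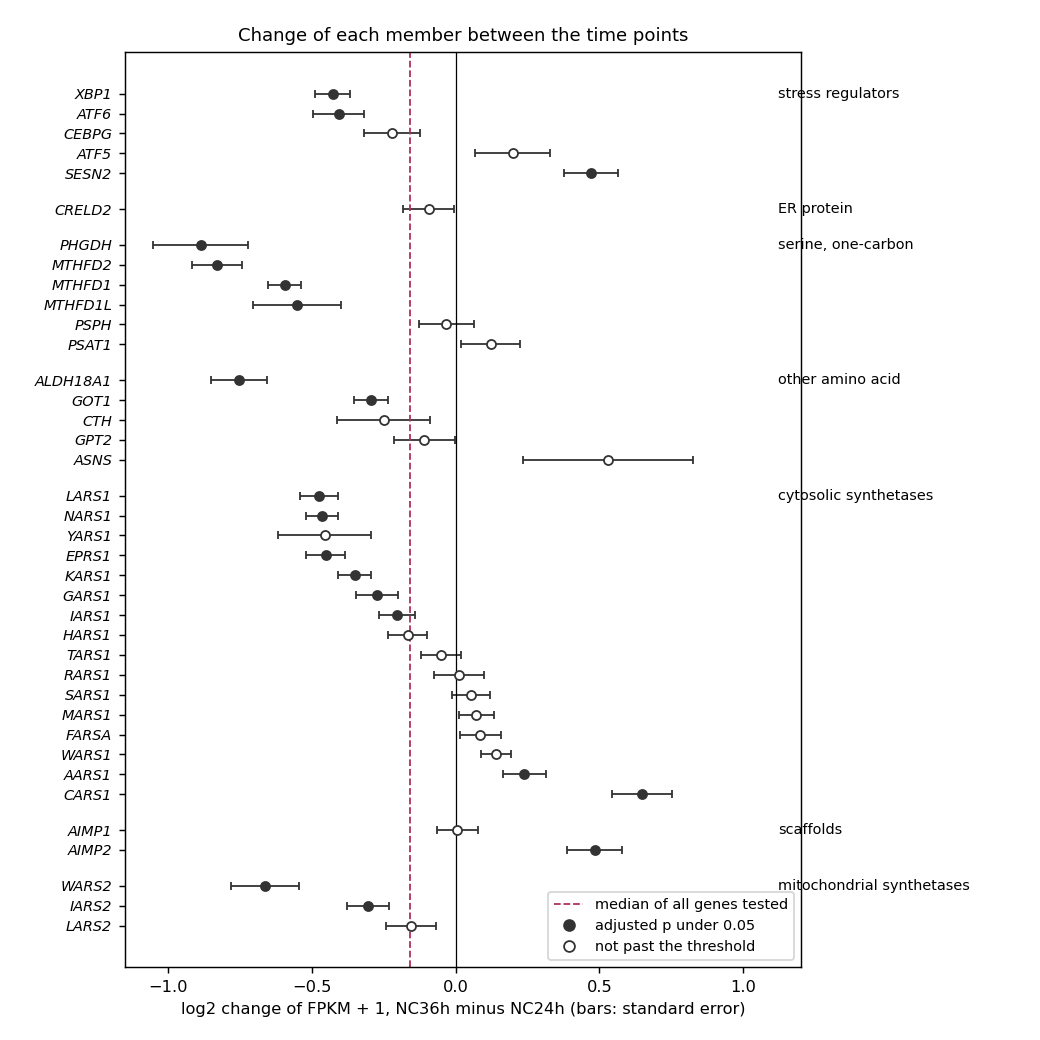
Log2 change of FPKM + 1, NC36h minus NC24h, of the 38 members tested, grouped by role, with the standard error of the limma fit (3 libraries a group). Filled points passed the adjusted threshold, open points did not, and the dashed line marks the median of all 14060 genes, -0.16. CARS1 lies farthest to the right at 0.65 and PHGDH farthest to the left at -0.89.

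Of the stress regulators, XBP1 and ATF6 fell and SESN2 rose. XBP1, the transcription factor made active by splicing when the ER sensor IRE1 is engaged, was at 68.5, 73.4 and 72.4 FPKM at NC24h and 52.0, 51.1 and 55.5 FPKM at NC36h. Every NC36h library lay below every NC24h library, a log2 change of -0.43 (SE 0.062, adjusted p = 0.00239). The values count all XBP1 RNA, and spliced and unspliced forms were not separated. ATF6, the ER membrane sensor that is cut to release a transcription factor, was at 40.8, 40.0 and 37.9 FPKM at NC24h and 26.1, 31.0 and 32.0 FPKM at NC36h. The groups were again apart (log2 change -0.41, SE 0.088, adjusted p = 0.00936), although the call was lost under median-ratio scaling (-0.24, adjusted p = 0.0869), described further on.

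SESN2, a sestrin that holds back mTORC1 when leucine is short, went the other way. Its levels were 5.61, 5.79 and 6.74 FPKM at NC24h and 9.03, 8.12 and 9.13 FPKM at NC36h. All NC36h libraries lay above all NC24h libraries (log2 change 0.47, SE 0.094, adjusted p = 0.0067). ATF5, a transcription factor translated under eIF2 phosphorylation much as ATF4 is, had 5.36, 5.42 and 7.55 FPKM at NC24h and 7.15, 7.36 and 6.73 FPKM at NC36h. Replicate 6 of NC24h was the highest of all 6, and the groups overlapped (log2 change 0.20, SE 0.13, adjusted p = 0.239). Without that library the change was 0.34 with an adjusted p of 0.0128. CEBPG, a partner of ATF4 in binding DNA, averaged 9.97 FPKM at NC24h and 8.44 FPKM at NC36h and did not pass the test (adjusted p = 0.097). CRELD2, an ER luminal protein and the 1 such member with a value, averaged 7.69 and 7.16 FPKM and did not pass either (adjusted p = 0.397).

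**Figure D2:**
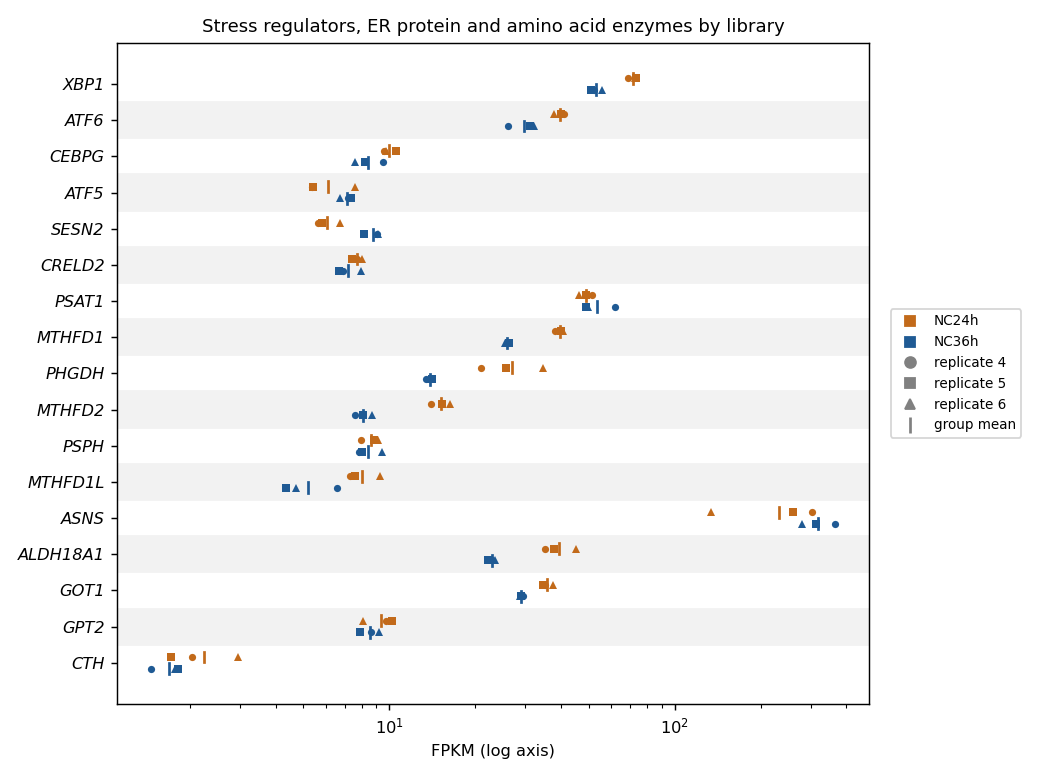
FPKM in each of the 6 libraries, on a log axis, of the 17 regulators, ER protein and amino acid enzymes with a value, with the mean of each group as a vertical bar and the replicate number as the shape of the point. MTHFD1, MTHFD2, PHGDH and ALDH18A1 separate cleanly, while the triangle of NC24h replicate 6 lies far to the left for ASNS, at 134 FPKM.

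Within serine synthesis, the first enzyme fell and neither of the later ones passed the test. PHGDH, which takes 3-phosphoglycerate out of glycolysis toward serine, was at 20.9, 25.6 and 34.4 FPKM at NC24h and 13.5, 14.1 and 13.9 FPKM at NC36h. The NC24h libraries spread widely, with replicate 6 the highest, and the NC36h libraries lay close together below all of them (log2 change -0.89, SE 0.17, adjusted p = 0.00547). PSAT1, the second enzyme of the path, was at 51.5, 48.7 and 46.2 FPKM at NC24h and 61.7, 48.9 and 49.7 FPKM at NC36h. Its groups overlapped (log2 change 0.12, SE 0.10, adjusted p = 0.347). PSPH, the phosphatase of the last step, averaged 8.63 ± 0.607 FPKM (SD, n = 3) at NC24h and 8.43 ± 0.885 FPKM (SD, n = 3) at NC36h.

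The ratio of PSAT1 to PHGDH restates the same values inside each library. It was 2.47, 1.91 and 1.34 at NC24h and 4.59, 3.46 and 3.57 at NC36h, a difference of 1.06 on the log2 scale, and the groups did not overlap. The ratio of PSPH to PHGDH was also higher in every NC36h library, by 0.89 on the log2 scale. Both had an exact two-sided permutation p of 0.10, the smallest that 3 against 3 can give, and 0.18 after adjustment over the 9 pairs of members compared. No pair could therefore pass a threshold of 0.05. PSAT1 to PSPH differed by 0.16 with overlapping groups (exact permutation p = 0.60).

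The 3 folate enzymes of one-carbon metabolism fell together. MTHFD2, the mitochondrial dehydrogenase and cyclohydrolase typical of dividing cells, was at 14.0, 15.3 and 16.3 FPKM at NC24h and 7.57, 8.09 and 8.67 FPKM at NC36h. That is a log2 change of -0.83 (SE 0.086, adjusted p = 0.00107), with a wide gap between the groups. MTHFD1, the cytosolic enzyme that carries all 3 activities of this path, was at 38.0, 40.1 and 40.7 FPKM at NC24h and 25.9, 26.3 and 25.4 FPKM at NC36h. It had the smallest adjusted p of any member (0.000942, log2 change -0.59, SE 0.058). MTHFD1L, the mitochondrial formate-producing enzyme, was at 7.28, 7.55 and 9.28 FPKM at NC24h and 6.54, 4.36 and 4.72 FPKM at NC36h. Replicate 4 of NC36h came close to the NC24h libraries, and the fall (-0.55, SE 0.15, adjusted p = 0.0236) was the least secure of the 3. Its adjusted p ran up to 0.0826 over the alternatives. Of the 4 cell cycle markers 3 fell in the same contrast, TOP2A from 12.7, 18.3 and 36.4 FPKM to 2.96, 2.10 and 3.19 FPKM, and their part in these changes was not tested.

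Of the other amino acid enzymes, ALDH18A1 and GOT1 fell, and ASNS had the largest change that did not pass the test. ALDH18A1, which begins proline synthesis from glutamate, was at 35.1, 37.9 and 44.9 FPKM at NC24h and 22.8, 22.1 and 23.5 FPKM at NC36h. The NC36h libraries lay close together and below all NC24h libraries (log2 change -0.75, SE 0.097, adjusted p = 0.00176). GOT1, the cytosolic aspartate aminotransferase, was at 35.1, 34.7 and 37.5 FPKM and then 29.4, 28.8 and 28.7 FPKM. Its fall was smaller (-0.29, SE 0.059, adjusted p = 0.00684) and was lost under median-ratio scaling (adjusted p = 0.103). CTH and GPT2, of cysteine and alanine synthesis, had log2 changes of -0.25 and -0.11 with overlapping groups.

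ASNS, asparagine synthetase and one of the best known ATF4 targets, was the most highly expressed of the amino acid and one-carbon enzymes per length of gene model. It stood at 304, 259 and 134 FPKM at NC24h and 364, 314 and 280 FPKM at NC36h. Replicate 6 of NC24h was far below the other 5 libraries, and NC24h replicate 4 lay above NC36h replicate 6. The log2 change was 0.53 (SE 0.29, adjusted p = 0.171), and without that replicate it was 0.18 (adjusted p = 0.276). The same library had the lowest myotube markers, with MYH3, embryonic myosin heavy chain, at 151 FPKM against 677 and 517 FPKM in the other NC24h libraries, and the highest TOP2A. The part of these differences in the ASNS values was not tested.

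**Figure D3:**
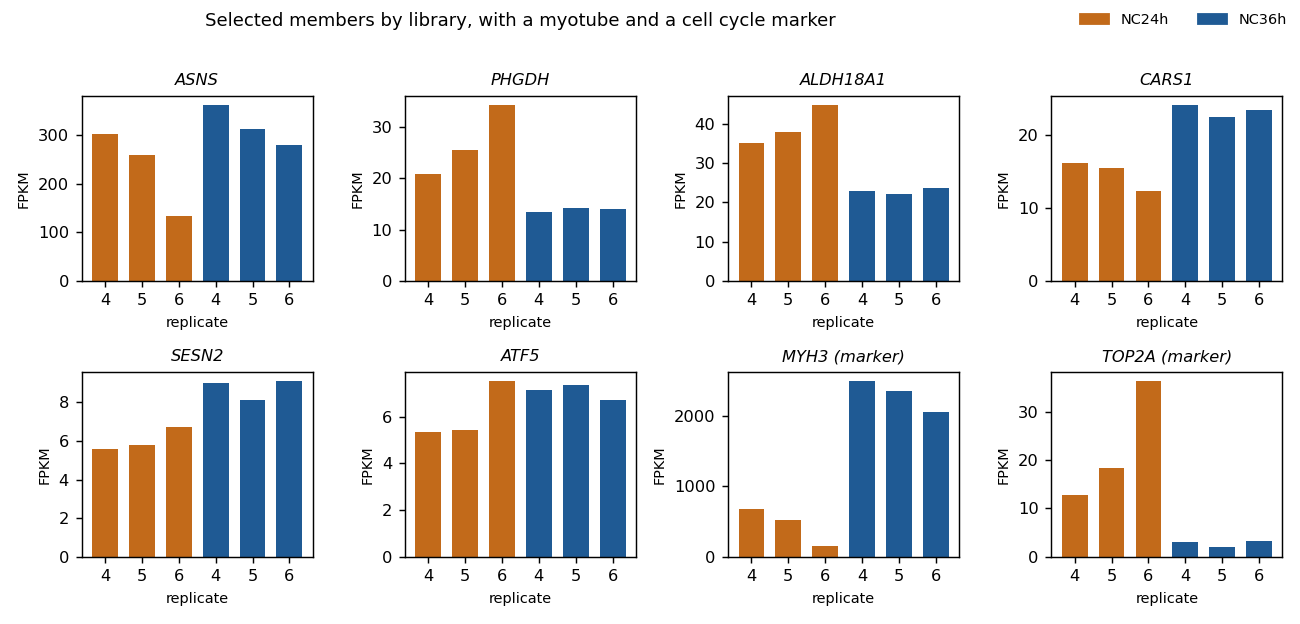
FPKM in each library (replicates 4 to 6 of both groups, linear axes from 0) of 6 members and of the markers MYH3 (myotubes) and TOP2A (cell cycle). Within NC24h, replicate 6 is lowest for ASNS, CARS1 and MYH3 and highest for PHGDH, ALDH18A1, SESN2, ATF5 and TOP2A.

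Of the 16 cytosolic synthetases tested, 6 fell (37.5% against 34.4% of all genes), 2 rose (12.5% against 16.5%) and 8 did not pass the test. These shares lie near those of all genes, with changes from -0.48 (LARS1) to 0.65 (CARS1) and a median of -0.11. Their summed level was 893 to 909 FPKM at NC24h and 775 to 797 FPKM at NC36h, and KARS1 alone accounted for 289 ± 6.72 FPKM (SD, n = 3) of the first and 226 ± 6.63 FPKM (SD, n = 3) of the second.

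CARS1, which charges cysteine tRNA, had the largest rise of all members. It was at 16.1, 15.4 and 12.4 FPKM at NC24h and 24.2, 22.5 and 23.5 FPKM at NC36h. The lowest NC36h library was well above the highest NC24h library (log2 change 0.65, SE 0.10, adjusted p = 0.00325). AARS1, for alanine, was at 79.7, 77.9 and 69.6 FPKM and then 94.4, 85.8 and 88.2 FPKM. The groups did not overlap, but the rise was small (0.24, SE 0.074, adjusted p = 0.0337), and its adjusted p ran from 0.0081 to 0.0992 over the alternatives.

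Among the synthetases that fell, 4 had changes below -0.34. LARS1, for leucine and also a leucine sensor of mTORC1, went from 30.6, 31.5 and 33.6 FPKM to 22.8, 21.6 and 23.6 FPKM (log2 change -0.48, SE 0.067, adjusted p = 0.00222). NARS1, for asparagine, went from 103, 106 and 108 FPKM to 77.8, 73.7 and 77.5 FPKM (-0.46, SE 0.055, adjusted p = 0.00145). Neither gene had a library of one group within the range of the other. EPRS1, the fused enzyme for glutamate and proline, went from 70.1, 66.9 and 61.1 FPKM to 48.1, 47.2 and 48.6 FPKM (-0.45, SE 0.067, adjusted p = 0.0026). KARS1, for lysine, went from 281, 292 and 294 FPKM to 219, 228 and 232 FPKM (-0.35, SE 0.058, adjusted p = 0.00363). These falls passed the threshold in every alternative.

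GARS1, for glycine, and IARS1, for isoleucine, also fell, but less. GARS1 was at 69.5, 73.6 and 81.2 FPKM at NC24h and 62.5, 59.5 and 62.9 FPKM at NC36h (log2 change -0.27, SE 0.073, adjusted p = 0.0201). IARS1 was at 29.6, 28.9 and 29.9 FPKM and then 25.2, 26.9 and 24.3 FPKM (-0.20, SE 0.063, adjusted p = 0.0332). The libraries of the groups were apart for both, but GARS1 lost its call in 3 of the 15 alternatives and IARS1 in 9 of them, both under median-ratio scaling. HARS1, WARS1, FARSA, MARS1, SARS1, TARS1 and RARS1 had log2 changes between -0.17 and 0.14 and did not pass the test. YARS1, for tyrosine, was near the filter of 1 FPKM at 1.10, 1.26 and 1.97 FPKM and then 0.710, 0.784 and 0.800 FPKM. The groups did not overlap, with 389 fragments at NC24h and 251 at NC36h in all, and the adjusted p was 0.0518. The YARS1 gene model has 5414 bases, and which part of it the fragments cover is not known. A limma voom fit on the fragment counts gave a log2 change of -0.87 with an adjusted p of 0.0183.

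**Figure D4:**
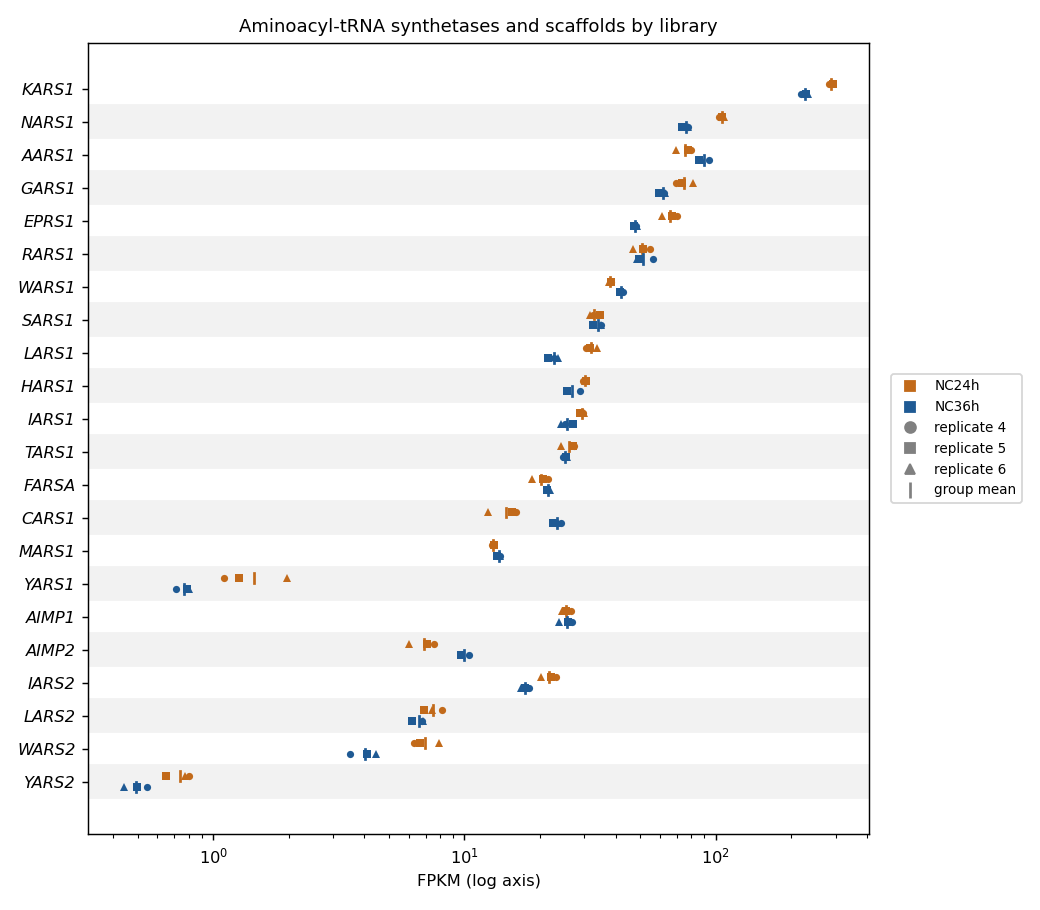
FPKM in each of the 6 libraries, on a log axis, of the 16 cytosolic synthetases, 2 scaffold proteins and 4 mitochondrial synthetases with a value, with group means as vertical bars. KARS1 is the highest at both times, CARS1 and AIMP2 lie to the right at NC36h, and WARS2, LARS1, NARS1 and EPRS1 lie to the left.

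The scaffold proteins of the multisynthetase complex differed. AIMP2, the central scaffold of the complex, was at 7.58, 7.08 and 5.99 FPKM at NC24h and 10.4, 9.70 and 9.81 FPKM at NC36h, above every NC24h library (log2 change 0.48, SE 0.096, adjusted p = 0.00687). Its gene model has 5850 bases, and the FPKM values do not show which part of it the fragments cover. AIMP1 averaged 25.4 ± 1.07 FPKM (SD, n = 3) and 25.5 ± 1.64 FPKM (SD, n = 3), with a log2 change of 0.01 (adjusted p = 0.951). The ratio of AIMP2 to AIMP1 was 0.286, 0.280 and 0.246 at NC24h and 0.388, 0.375 and 0.414 at NC36h. It was higher in all NC36h libraries, by 0.54 on the log2 scale (exact two-sided permutation p = 0.10, adjusted 0.18). Of the 9 subunits of the complex with a value, which include both scaffolds, 1 rose (AIMP2) and 4 fell (EPRS1, IARS1, KARS1 and LARS1), against 16.5% and 34.4% of all genes.

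In the mitochondrial enzymes, WARS2 and IARS2 fell and LARS2 did not pass the test. WARS2, for tryptophan, was at 6.28, 6.63 and 7.94 FPKM at NC24h and 3.51, 4.09 and 4.45 FPKM at NC36h. The groups lay far apart (log2 change -0.66, SE 0.12, adjusted p = 0.00455). Its cytosolic counterpart WARS1 was at 38.4, 38.1 and 37.6 FPKM and then 42.9, 41.8 and 41.6 FPKM, higher in every NC36h library but not past the threshold (0.14, adjusted p = 0.0596). The ratio of WARS1 to WARS2 was accordingly 6.12, 5.75 and 4.73 at NC24h and 12.2, 10.2 and 9.34 at NC36h, a difference of 0.94 on the log2 scale (exact two-sided permutation p = 0.10, adjusted 0.18).

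IARS2, for isoleucine, was at 23.0, 22.0 and 20.2 FPKM and then 18.1, 17.4 and 16.8 FPKM (log2 change -0.30, SE 0.072, adjusted p = 0.0133), below every NC24h library. It rests on a gene model of 388 bases, with 420 and 411 fragments in the groups. LARS2, for leucine, averaged 7.47 and 6.60 FPKM (adjusted p = 0.177). YARS2, for tyrosine, averaged 0.739 ± 0.0813 FPKM and 0.495 ± 0.0532 FPKM (SD, n = 3 each), under the filter, and was not tested. The ratio of LARS1 to LARS2 was lower in every NC36h library, by 0.32 on the log2 scale with an exact two-sided permutation p of 0.10. Those of IARS1 to IARS2 and YARS1 to YARS2 overlapped between the groups (exact permutation p = 0.30 and 0.40).

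The calls of some members depended on how the libraries were scaled. On the deposited FPKM scale, 63.7% of all genes had a negative change and 32.4% of all calls were rises. After scaling each library by its median ratio to the average library, the median change of all genes moved from -0.16 to -0.01, and 51.8% of calls were rises. On that scale 9 members rose and 10 fell, against 23.9% and 22.3% of all genes, and 46.3% of all genes were called in either direction. SESN2, AARS1, CARS1 and AIMP2 rose on both scales, and XBP1, PHGDH, MTHFD1, MTHFD2, ALDH18A1, EPRS1, KARS1, LARS1, NARS1 and WARS2 fell on both. The calls of ATF6, MTHFD1L, GOT1, GARS1, IARS1 and IARS2 were lost, and ATF5, FARSA, MARS1, SARS1 and WARS1 were called higher on the second scale alone. No member was called in opposite directions on the 2 scales.

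**Figure D5:**
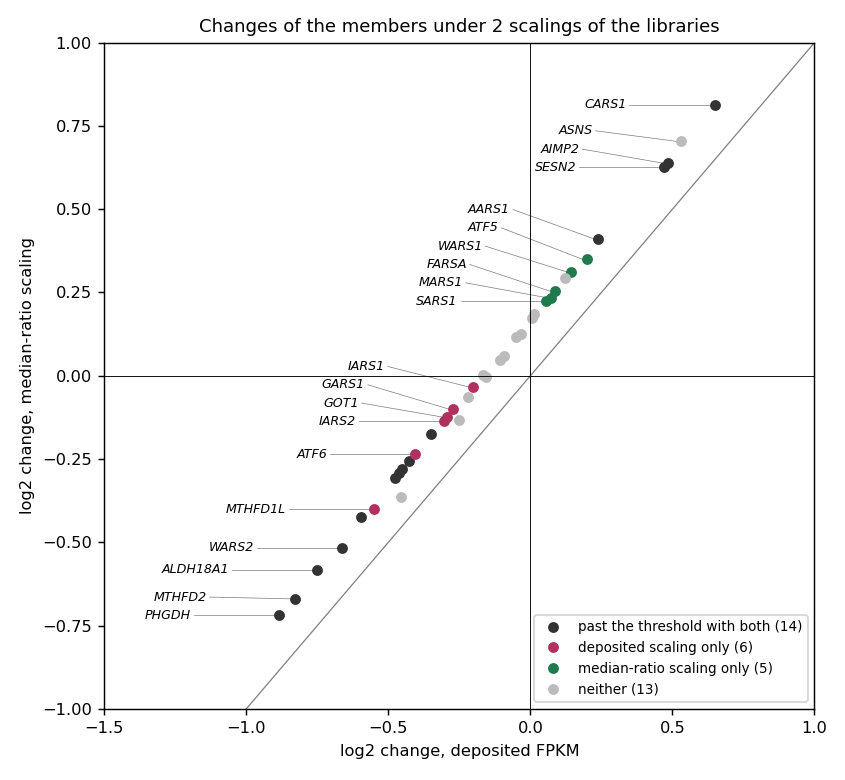
Log2 change of each of the 38 members tested on the deposited FPKM scale (x axis) and after median-ratio scaling (y axis), with the line of equality. All points lie above the line. Black points (14) passed the threshold on both scales, red (6) on the deposited scale only, green (5) on the second only, and grey (13) on neither.

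The remaining genes of the pathway were read from lists of their own. Of 13 genes of the eIF2 kinases, phosphatases and exchange factor, none rose and 3 fell on the FPKM scale, against 16.5% and 34.4% of all genes. They were EIF2AK2, the kinase PKR (log2 change -0.63, adjusted p = 0.0179), EIF2B3 of the exchange factor (-0.35) and GCN1, which activates the amino acid sensing kinase GCN2 (-0.23). EIF2AK3, the ER kinase PERK, was at 6.63, 7.32 and 10.2 FPKM and then 6.51, 6.54 and 6.90 FPKM (adjusted p = 0.238). After median-ratio scaling EIF2AK2 alone of this list fell, and DELE1, which relays mitochondrial stress, rose (0.24, adjusted p = 0.0159).

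Of 7 amino acid transporters tested, 4 fell and none rose, against 34.4% and 16.5% of all genes. SLC7A11, the cystine and glutamate exchanger, was at 3.47, 3.24 and 3.48 FPKM at NC24h and 0.873, 1.34 and 2.02 FPKM at NC36h (log2 change -0.89, adjusted p = 0.0070). These values rest on few fragments, 121 at NC24h and 60 at NC36h, on a gene model of 716 bases. SLC38A2, a neutral amino acid carrier induced by starvation for amino acids, was at 14.7, 15.4 and 18.2 FPKM and then 6.20, 8.78 and 10.3 FPKM (-0.88, adjusted p = 0.0067). Both fell without overlap, and SLC38A1 (-0.45) and SLC1A5 (-0.27) fell by less. After median-ratio scaling 2 fell and 1 rose: SLC38A1 and SLC1A5 were no longer called, and SLC3A2, the shared heavy chain of several transporters, was (0.30, adjusted p = 0.0199).

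Other genes described as ATF4 targets went both ways, 3 up and 3 down of 10 tested, against 16.5% and 34.4% of all genes. VLDLR, a lipoprotein receptor (log2 change 1.01), VEGFA, the angiogenic growth factor (0.97), and BBC3, the pro-apoptotic protein PUMA (0.85), rose. NIBAN1 (-0.70), PCK2, mitochondrial phosphoenolpyruvate carboxykinase (-0.68), and CCPG1, an ER-phagy receptor (-0.39), fell. Of 9 further folate and glycine genes tested, FPGS, which adds glutamates to folate, rose (0.53), and ALDH1L2 (-0.51), DLD (-0.28) and MTRR (-0.26) fell, near the shares of all genes, 16.5% and 34.4%. After median-ratio scaling FPGS and ALDH1L2 were still called. Among the synthetases outside the member lists, the mitochondrial RARS2 (-0.55) and NARS2 (-0.26) fell.

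Of 15 ER chaperones and degradation factors, 13 fell on the FPKM scale and none rose, against 34.4% and 16.5% of all genes, with a median log2 change of -0.36. SEL1L, the adaptor of the ER ubiquitin ligase HRD1, changed by -0.76 (adjusted p = 0.0008), HYOU1, an ER chaperone, by -0.68, and PDIA3, a disulfide isomerase, by -0.50. The summed level of the 15 was 1596 to 1818 FPKM at NC24h and 1276 to 1352 FPKM at NC36h. After median-ratio scaling 6 of the 15 fell, against 22.3% of all genes, and the median was -0.18.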

How the data were processed

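The deposited values are FPKM per gene, made by the authors from RNA-seq libraries of 6 samples. The submitters' processing notes name TopHat2, Cufflinks and HTSeq with Sscrofa 11.1, while the paper's methods name another aligner and assembler, so the steps behind the FPKM values are not certain. Of the 20 members without a value here, 19 have identifiers numbered above the highest in the table, as do 3819 of the 15623 named identifiers. The absence of these 19 therefore says nothing about their expression. Which gene set the FPKM values used is not certain, and no coordinates are given. The extraction text of the labels names endometrium, against skeletal muscle in the tissue label. No reference sequences were used.

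FPKM + 1 was log2 transformed, and genes with a mean of at least 1 FPKM were fitted in R 4.3.3 with limma 3.58.1 (empirical Bayes with a mean-variance trend, 3 against 3 libraries, two-sided, Benjamini-Hochberg adjustment over all 14060 genes, threshold 0.05). Fold changes on this scale understate the change of low genes. Whole fragment counts were recovered from the steps of the FPKM values, and 99.1% of the genes gave a gene length within 0.05 bases of a whole number. They give depth and the voom alternative. Counting error sets a floor on the precision of low genes. The scripts were tested on simulated data. Ratios of members were compared by exact permutation tests. Symbols were matched for 11804 of 25322 Ensembl identifiers. Shared replicate numbers were not treated as pairs.

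Values in every library are given for XBP1, ASNS, PHGDH, PSAT1 and MTHFD2, for the 5 largest rises and 5 largest falls past the threshold in each member list, and for members whose call or overlap turns on 1 library. IARS1, ATF5, YARS1 and WARS1 were chosen after their values were seen. Of the other lists, up to 3 rises and 3 falls by size are named, and EIF2AK3 and SLC1A5 were chosen afterwards. Members and lists were chosen with earlier results of these data known. The alternatives were another pseudocount, filter, scaling, variance model, the replicate number as a block, and each library left out.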

Additional observations from a re-analysis of the deposited data

How the results depend on the processing

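Of the 20 members called, 13 kept their call in all 15 alternatives. ATF6, MTHFD1L, GOT1, AARS1, GARS1, IARS1 and IARS2 lost it in at least 1. With median-ratio scaling, 9 members were higher and 10 lower, where 3367 of all 14060 genes were higher and 3136 lower. The higher ones were 2 stress regulators, 6 cytosolic synthetases and 1 scaffold. The lower ones were 1 stress regulator, 3 serine and one-carbon enzymes, 1 other amino acid enzyme, 4 cytosolic synthetases and 1 mitochondrial synthetase. The median of the cytosolic synthetases turned to 0.060. With quantile normalization, 7 members were higher (among them stress regulators 2, cytosolic synthetases 4) and 13 lower (among them mitochondrial synthetases 1). In that fit 3039 of all genes were higher and 3542 lower. Without the variance trend, 1 cytosolic synthetase was higher, where 2279 of all genes were higher and 4799 lower. Over the fits without 1 library, the calls over all genes ran from 4889 (without NC36h replicate 5) to 7336. Of all 14060 genes, from 1580 to 2440 were higher and from 3309 to 4896 lower. Members higher ran from 3 to 5 and members lower from 12 to 17, of the 38 tested. Stress regulators higher ran from 1 to 2 and lower from 2 to 3. Cytosolic synthetases higher ran from 1 to 2 and lower from 4 to 6, and mitochondrial synthetases lower from 1 to 2.

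Changes that turned sign belonged to members not past the threshold. Under median-ratio and quantile scaling they were CRELD2, the 1 ER luminal member (0.060 and 0.086), PSPH (0.12 and 0.14), GPT2 (0.048 and 0.066) and TARS1 (0.12 and 0.043). HARS1 (0.0022) turned under median-ratio scaling alone, and LARS2 (0.027) under quantile scaling alone. In fits without 1 library, the change of PSPH ran from -0.11 to 0.012, that of RARS1 from -0.051 to 0.066 and that of AIMP1 from -0.032 to 0.056. The cause was not tested.

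The replicate number was not taken as a pairing. The deviations of same-numbered libraries from their group means correlated at 0.15, -0.02 and 0.18. Correlations of differently numbered libraries were not computed, so these values cannot show whether a pairing is present. With the replicate block, 7034 genes were called instead of 7156, and IARS1 was the 1 member to lose its call (adjusted p = 0.0627). The limma voom fit on recovered fragments, chosen after seeing the data, called 7248 genes, with YARS1 added to the members. Among the members, MTHFD2, YARS1, YARS2, CTH and IARS2 rest on under 450 fragments in a group, which limits what can be said of them.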

Other observations

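ATF3, a stress transcription factor described as an ATF4 target, was chosen after its values were seen. It stood at 40.4, 34.9 and 34.9 FPKM at NC24h and at 10.8, 11.5 and 116 FPKM at NC36h, so that NC36h replicate 6 lay above all other libraries and the other NC36h libraries below them (adjusted p = 0.615). PPP1R15A, the stress-induced subunit of the eIF2 phosphatase, was at 66.9, 69.7 and 70.2 FPKM at NC24h and 62.3, 65.5 and 103 FPKM at NC36h, with the same library highest. Among the members, ASNS was lowest of its group in that library, at 280 FPKM against 364 and 314 FPKM. SESN2 was at 9.13 FPKM there, close to the 9.03 FPKM of NC36h replicate 4, with 8.12 FPKM in replicate 5.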
